A study of Mus musculus with 8 samples.

Results

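The 10 neutrophil granule genes described here were followed in mouse bone marrow-derived macrophages with and without the transcription factor Ets1. They were chosen by gene name from the 23346 genes of the expression table, 4 as primary granule genes (Mpo, Elane, Prtn3 and Ctsg) and 6 as genes of later stages (Ltf, Ngp, Camp, Lcn2, Mmp8 and S100a8). All 10 were in the table and passed the filter on low values, which kept 20595 genes. Marrow of male mice aged 8 weeks was cultured over 7 days in M-CSF at 10 ng/ml, with 10% fetal bovine serum. The 3 control libraries were from Ets1 f/f mice, and the 3 knockout libraries from Ets1 f/f mice that also carried Lyz2-cre. The floxed alleles are therefore present in every library, but Cre only in the knockouts, and effects of Cre and of Ets1 loss cannot be told apart. Lyz2-cre is known to act in monocytes, macrophages and neutrophils. The labels do not say whether replicates were separate animals, so p-values reflect library-to-library spread only, part or all of which could be technical. Ets1 ChIP-seq peaks came from wild-type C57 macrophages polarized to M1 or M2, each state having 1 library; the polarizing agents are not named in the labels.

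Neutrophils store antimicrobial proteins in granules that are filled one after another as the cell matures. Primary (azurophil) granules are filled at the promyelocyte stage with myeloperoxidase and serine proteases. Specific granules, with lactoferrin, lipocalin and cathelicidin, follow at the myelocyte stage, gelatinase granules come after them, and the genes of the first set are shut down as the next are turned on. Macrophages and their marrow precursors are known to carry RNA of some of these genes, and monocytes share early precursors with neutrophils.

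The libraries held between 16897873 and 20259175 reads on genes. Ets1 had normalized counts of 3641, 3337 and 2869 in the controls and 825, 755 and 645 in the knockouts, 4.43-fold lower in the mean (log2 fold change −2.15, SE 0.11). The macrophage genes Adgre1 and Lyz2 were abundant in all 6 libraries, with Adgre1 at 59435 to 76999 in the controls and 100799 to 102634 in the knockouts. They were the only 2 of 10 macrophage markers that rose in knockouts, while 5 others fell. Of the defining neutrophil genes, Ly6g was between 7.05 and 17.9 in every library and Cxcr2 between 58.1 and 81.7, while Csf3r (3858 to 4608) and S100a9 (2369 to 5255), which monocytes also carry, were abundant in every library.

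The promoters of the 4 primary genes, which had the largest falls among the 10, and of 3 later genes are shown first. Whether promoter sequence bears on the fold changes was not tested. Ltf and Mmp8 are shown as the members that did not pass the test, and S100a8 as one of the members whose promoter lies under an Ets1 peak. Each run is 300 bases, from 250 bases before to 50 after the RefSeq gene start, 5′ to 3′ on the gene's own strand. The assembly is GRCm38.p6, which UCSC names mm10. The RefSeq start can differ from the start in the expression table, as it does for Mpo and Lcn2. Motif positions below are counted from the RefSeq start, and peak distances from the start in the expression table. All 10 members matched by symbol. Capitals mark matches on either strand to GAGGAA, a core bound by the macrophage factor PU.1, or to TTGCNNAA, a form of the C/EBP site.

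Elane (chr10:79886062-79886361, plus strand): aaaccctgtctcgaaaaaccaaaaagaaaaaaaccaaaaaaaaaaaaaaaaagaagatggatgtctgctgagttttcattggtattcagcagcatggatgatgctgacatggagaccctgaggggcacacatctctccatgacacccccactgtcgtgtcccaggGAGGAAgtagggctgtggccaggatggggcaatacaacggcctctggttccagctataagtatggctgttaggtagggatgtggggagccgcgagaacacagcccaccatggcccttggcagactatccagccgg

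Prtn3 (chr10:79879417-79879716, plus strand): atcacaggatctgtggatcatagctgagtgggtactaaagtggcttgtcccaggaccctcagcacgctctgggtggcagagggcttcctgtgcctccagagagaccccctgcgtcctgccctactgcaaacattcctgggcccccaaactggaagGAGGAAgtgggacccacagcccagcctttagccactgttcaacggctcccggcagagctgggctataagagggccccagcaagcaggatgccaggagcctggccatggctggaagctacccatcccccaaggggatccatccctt

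Mpo (chr11:87793534-87793833, plus strand): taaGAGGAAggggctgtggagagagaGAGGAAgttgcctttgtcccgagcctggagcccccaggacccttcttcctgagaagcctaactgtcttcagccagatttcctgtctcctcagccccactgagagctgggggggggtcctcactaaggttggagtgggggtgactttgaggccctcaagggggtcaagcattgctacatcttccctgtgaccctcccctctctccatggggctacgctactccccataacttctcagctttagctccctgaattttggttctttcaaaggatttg

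Ctsg (chr14:56102525-56102824, minus strand): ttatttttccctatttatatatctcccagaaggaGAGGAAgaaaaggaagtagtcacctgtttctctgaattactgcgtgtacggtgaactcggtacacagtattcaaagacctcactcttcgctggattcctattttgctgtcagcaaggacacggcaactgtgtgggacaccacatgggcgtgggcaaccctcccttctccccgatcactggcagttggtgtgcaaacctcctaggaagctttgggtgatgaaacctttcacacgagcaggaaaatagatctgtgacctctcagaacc

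Ltf (chr9:111019042-111019341, plus strand): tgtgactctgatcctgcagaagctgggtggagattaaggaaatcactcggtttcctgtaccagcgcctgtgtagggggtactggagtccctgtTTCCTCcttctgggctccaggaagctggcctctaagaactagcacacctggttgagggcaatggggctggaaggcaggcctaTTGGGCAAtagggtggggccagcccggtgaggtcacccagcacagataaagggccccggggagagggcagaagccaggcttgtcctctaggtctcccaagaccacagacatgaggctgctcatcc

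Mmp8 (chr9:7558179-7558478, plus strand): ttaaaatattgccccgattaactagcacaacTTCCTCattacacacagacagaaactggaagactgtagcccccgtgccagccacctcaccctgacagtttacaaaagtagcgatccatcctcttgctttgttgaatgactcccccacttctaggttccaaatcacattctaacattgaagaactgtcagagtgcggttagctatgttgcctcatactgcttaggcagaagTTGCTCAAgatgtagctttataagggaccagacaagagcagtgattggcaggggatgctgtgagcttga

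S100a8 (chr3:90668821-90669120, plus strand): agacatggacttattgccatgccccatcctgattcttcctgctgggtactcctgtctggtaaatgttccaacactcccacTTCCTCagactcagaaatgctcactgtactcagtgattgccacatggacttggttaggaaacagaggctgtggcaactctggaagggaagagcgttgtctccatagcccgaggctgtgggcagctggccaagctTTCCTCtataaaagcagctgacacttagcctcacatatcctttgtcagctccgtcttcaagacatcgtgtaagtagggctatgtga

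GAGGAA was found in all 4 primary promoters, each time on the strand of the gene. It was found in 4 of 6 later promoters (Lcn2, S100a8, Mmp8 and Ltf), each time on the opposite strand. Of 16885 promoters of genes in the table, 27.6% held it on either strand and 14.8% on the strand of the gene. In Elane and Prtn3 the match began 85 and 95 bases before the start. TTGCNNAA was in 4 later promoters (Lcn2, Mmp8, Ngp and Ltf) and in 0 of 4 primary promoters, against 9.03% of all promoters. CCGGAAG, a core of the type that Ets1 binds, was in 0 of 10, against 14.4% of all. The 2 motifs with matches do not overlap each other in these windows. Letters in a window of this length are a description of sequence and do not show binding.

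The primary genes fell by 4.33- to 5.41-fold in knockouts, and the later genes ranged from no detectable change to a 3.09-fold fall. Of the 10, 8 passed the test, all lower in knockouts: 4 of 4 primary and 4 of 6 later genes, with 0 higher. Over all genes tested, limma called 10.5% lower and 10.4% higher. The median log2 fold change was −2.30 for the primary genes, −0.78 for the later genes and −0.04 for all genes tested. In 8 members all 3 knockout libraries lay below all 3 controls, which was so for 18.5% of all genes tested. In bulk RNA, fewer cells of a type and less RNA per cell cannot be told apart.

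**Figure D1:**
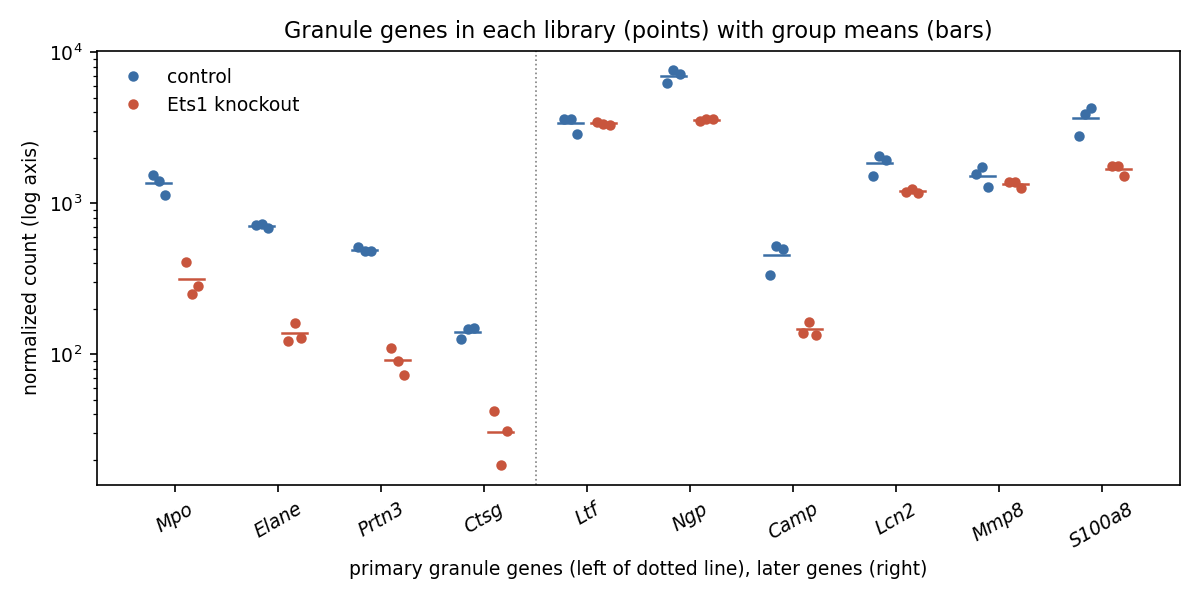
Normalized count of each granule gene (log axis) in the 3 control and 3 knockout libraries, with points for libraries and bars for group means. The groups are apart in every primary gene and overlap in Ltf and Mmp8, with Ltf means of 3381 and 3383.

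Elane codes for neutrophil elastase (ENSMUSG00000020125, chromosome 10, 79886247 to 79888215 on mm10). Its normalized counts were 716, 728 and 687 in the controls and 122, 162 and 129 in the knockouts. The controls were close together and every knockout lay far below them. The mean fell 5.16-fold from 710.5 ± 21.3 (SD, n = 3) to 138 ± 21.8, and the log2 fold change of −2.37 had an SE of 0.12 and an adjusted p from limma of 4.21e-07. Prtn3 codes for proteinase 3, the target of autoantibodies in human vasculitis (ENSMUSG00000057729, chromosome 10, 79874476 to 79883174). It lies 3.1 kb from Elane in a cluster of serine protease genes. Prtn3 had 517, 482 and 483 in the controls and 111, 90.5 and 72.7 in the knockouts. The groups did not overlap and the log2 fold change of −2.44 (SE 0.15, adjusted p from limma 1.12e-06) was the lowest of the 10. Plppr3, on the opposite strand, overlaps Prtn3, and whether counting used the strand is not given in the sources used here. Plppr3 itself had means of 177 and 90.1 (log2 fold change −0.95, SE 0.18, adjusted p from limma 0.00330).

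Mpo codes for myeloperoxidase, which makes hypochlorous acid (ENSMUSG00000009350, chromosome 11, 87793581 to 87804413). Its values were 1549, 1410 and 1130 in the controls and 411, 251 and 283 in the knockouts. The highest knockout stayed below the lowest control. The fall was 4.33-fold, a log2 fold change of −2.13 (SE 0.17, adjusted p from limma 5.31e-06). Ctsg codes for cathepsin G (ENSMUSG00000040314, chromosome 14, 56099881 to 56102574). Ctsg had 126, 146 and 150 in the controls and 42.4, 18.5 and 31.3 in the knockouts. The groups did not overlap, and the values rested on 86 reads over the 3 knockouts, against 452 in controls. On the log2 scale it changed by −2.23 (SE 0.27, adjusted p from limma 0.000152). Between 1.15% and 1.92% of all genes tested had a log2 fold change below those of the 4 primary genes.

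Among the later genes, Camp, the gene of the cathelicidin antimicrobial peptide (ENSMUSG00000038357, chromosome 9, 109847379 to 109849617), fell most. It had 334, 525 and 499 in the controls and 139, 164 and 135 in the knockouts. Control replicate 1 was the lowest control but still above every knockout. Its log2 fold change of −1.60 had an SE of 0.17 and an adjusted p from limma of 4.20e-05. S100a8 codes for a calcium-binding protein of the neutrophil cytosol, not of a granule (ENSMUSG00000056054, chromosome 3, 90668978 to 90670035). It had 2799, 3890 and 4283 in the controls and 1766, 1766 and 1518 in the knockouts. Control replicate 1 was again the lowest control, and the mean fell 2.17-fold (log2 fold change −1.10, SE 0.13, adjusted p from limma 0.000130). Its partner S100a9, which forms calprotectin with it and lies 22.6 kb away, had means of 4898 ± 573 and 2447 ± 118 (log2 fold change −0.995, SE 0.09, adjusted p from limma 1.69e-05).

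Ngp, neutrophilic granule protein, belongs to the same protein family as cathelicidin (ENSMUSG00000032484, chromosome 9, 110419747 to 110423012). Its values were 6285, 7586 and 7145 in the controls and 3512, 3604 and 3642 in the knockouts. All 3 knockouts were nearly equal and below every control, with a log2 fold change of −0.96 (SE 0.08, adjusted p from limma 1.02e-05). Lcn2 codes for lipocalin 2, which binds bacterial siderophores (ENSMUSG00000026822, chromosome 2, 32384633 to 32388252). Lcn2 had 1528, 2061 and 1924 in the controls and 1190, 1238 and 1178 in the knockouts. The groups did not overlap, but its fall of 1.53-fold was the smallest that passed (log2 fold change −0.60, SE 0.10, adjusted p from limma 0.00165).

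The 2 members that did not pass were Mmp8 and Ltf. Mmp8 codes for neutrophil collagenase (ENSMUSG00000005800, chromosome 9, 7558456 to 7568485). Its values were 1566, 1735 and 1279 in the controls and 1385, 1391 and 1264 in the knockouts, so the groups overlapped. The log2 fold change was −0.17 with a 95% interval of −0.40 to 0.06 (adjusted p from limma 0.286). It passed when scaled to total reads (adjusted p = 0.0416) and without control replicate 3 (adjusted p = 0.0247, log2 fold change −0.29). Ltf codes for the iron-binding protein lactoferrin (ENSMUSG00000032496, chromosome 9, 111019271 to 111042767). Ltf had 3621, 3624 and 2897 in the controls and 3479, 3348 and 3321 in the knockouts. The knockouts lay within the range of the controls. Its log2 fold change was 0.01 with a 95% interval of −0.19 to 0.21 (adjusted p from limma 0.960), and −0.13 when scaled to total reads. Ltf lies on chromosome 9 with Camp and Ngp, 596 kb from Ngp, which lies 570 kb from Camp. These neighbours thus had log2 fold changes of 0.01, −0.96 and −1.60.

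**Figure D2:**
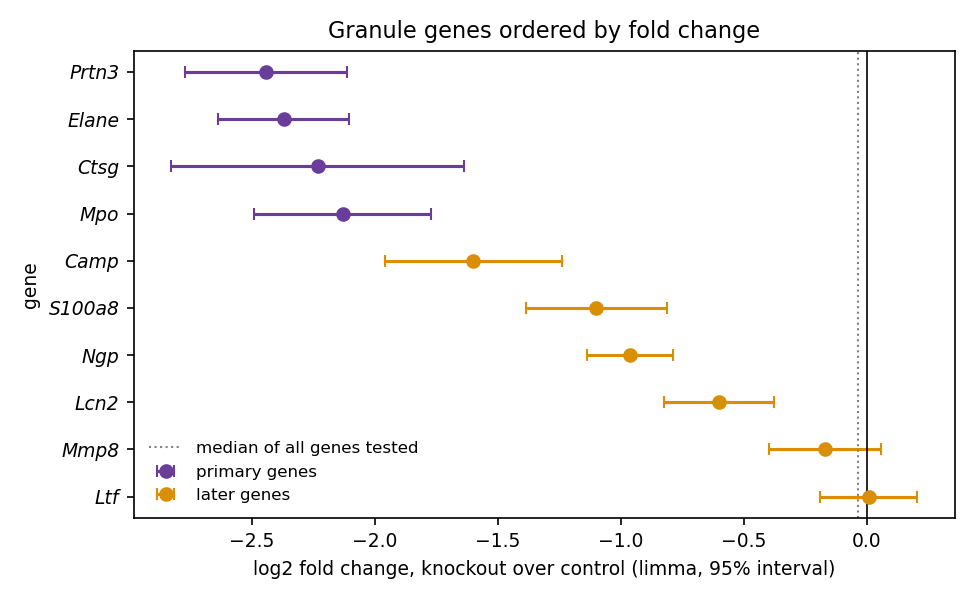
Log2 fold change of knockout over control from limma with its 95% interval, with genes ordered by value and coloured by stage, and a dotted line at the median of all genes tested. The 4 primary genes lie between −2.44 and −2.13 and the 6 later genes between −1.60 and 0.01.

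Levels of different genes were compared as normalized counts per kb of gene length. In controls the order was Ngp (5733 per kb), S100a8 (5270), Ltf (980), Elane (722), Lcn2 (701), Mmp8 (630), Camp (597), Mpo (398), Prtn3 (285) and Ctsg (136). Of neighbours in this order, the ranges of Ngp and S100a8, Elane and Lcn2, Lcn2 and Mmp8, Mmp8 and Camp, and Camp and Mpo overlapped. In knockouts Ngp (2934 per kb), S100a8 (2425) and Ltf (981) again came first, and Elane (140 per kb) lay below all 6 later genes. Elane was between 698 and 740 per kb in controls, inside the range of Lcn2 (583 to 786), but between 124 and 165 in knockouts, below the 178 to 217 of Camp.

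The stages were also compared as shares and ratios within each library, where scaling between libraries plays no part. The 4 primary genes made up 15.3% (Wilson 95% interval 14.8 to 15.8), 12.5% (12.04 to 12.9) and 11.97% (11.5 to 12.4) of the reads of the 10 genes in controls. In knockouts the shares were 5.65% (5.23 to 6.09), 4.34% (3.997 to 4.72) and 4.45% (4.07 to 4.87). Every knockout was below every control, and replicate 1 was the highest in each group. The intervals cover counting error only. CPM (reads scaled to an equal total on genes) does rest on scaling between libraries. In CPM the primary genes went from 156 ± 8.90 (SD, n = 3) to 30.2 ± 4.95 and the later genes from 1031 ± 112 to 596 ± 9.73. Of the 24 pairs of 1 primary and 1 later gene, the log2 ratio of primary to later was lower in all 3 knockouts than in all 3 controls in 22. The mean log2 ratio fell in all 24 pairs, with differences between −2.45 (Prtn3 to Ltf) and −0.53 (Mpo to Camp). This follows from the fold changes above, where every primary gene lay below every later gene, and adds no support. The pairs that overlapped were Mpo to Camp and Ctsg to Camp. The 24 pairs reuse the same 10 genes, and no share over other gene pairs was computed. These ratios are a description of the members and were not tested.

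**Figure D3:**
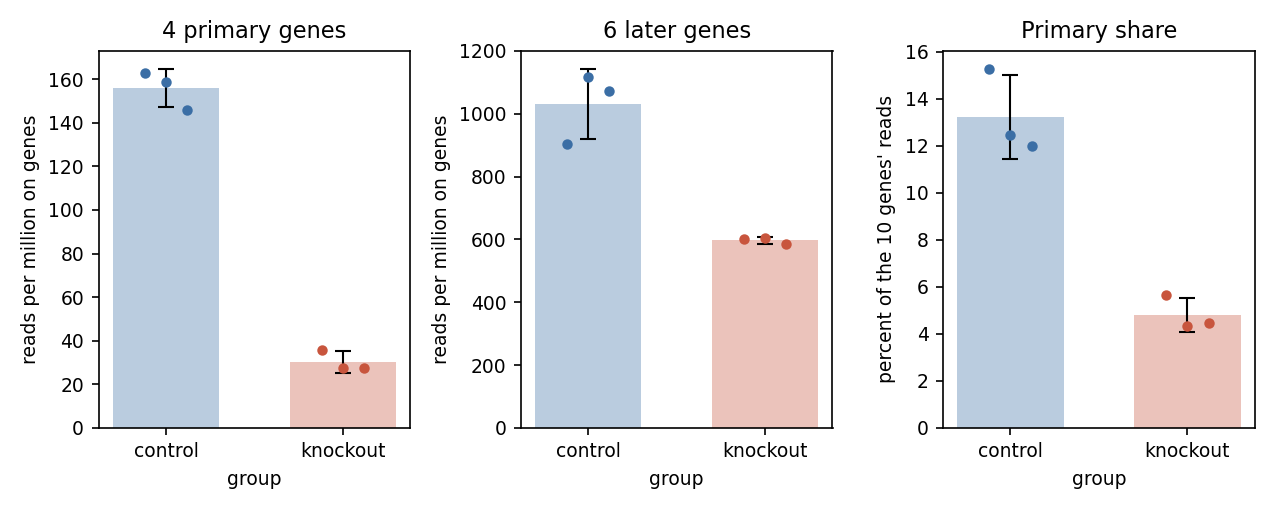
Summed reads of the 4 primary and 6 later genes as CPM, and the primary share of the reads of all 10 genes, with points for libraries, bars for means and error bars for SD (n = 3). The mean primary share is 13.2% in the controls and 4.81% in the knockouts.

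Other genes of the same granules were counted from gene lists, as a description. Of 9 further primary granule and promyelocyte genes, 8 fell, 0 rose and 1 did not pass, with a median log2 fold change of −1.42. The number that fell was 7 with any library but control replicate 1 left out, and 9 when scaled to total reads. The falls were uneven, with log2 fold changes of only −0.95 for Srgn, −0.59 for Gstm1 and −0.46 for Cd63. Prss57, another serine protease of this granule, was at 29.9, 34.4 and 33.8 in the controls and 2.18, 2.92 and 6.71 in the knockouts (log2 fold change −2.88, SE 0.45). All 3 knockouts lay far below the controls, on only 11 reads in sum. Fcnb, which codes for ficolin B, had a log2 fold change of −2.57 (SE 0.19), and Ms4a3, a marker of granulocyte and monocyte progenitors, of −2.30 (SE 0.27). Ctsc codes for cathepsin C, which activates the granule serine proteases and is widely expressed in macrophages. Ctsc had a log2 fold change of −0.12 (95% interval −0.28 to 0.05, adjusted p from limma 0.313), and passed when scaled to total reads (adjusted p = 0.0278).

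Of 15 further genes of specific granules, 9 fell, 0 rose and 6 did not pass, with a median of −0.61. With 1 library removed the number that fell was 3 (control replicate 2), 6 (control replicate 3), 7 (knockout replicate 1), 6 (knockout replicate 2) or 5 (knockout replicate 3). It was 10 when scaled to total reads. Ptx3, a soluble pattern receptor, had 101 reads in the controls and 9 in the knockouts (log2 fold change −3.16, SE 0.51). Orm1 and Wfdc21 had log2 fold changes of −1.92 and −0.93. Orm1 did not pass with control replicate 2 (adjusted p = 0.113), control replicate 3 (0.0612), knockout replicate 2 (0.109) or knockout replicate 3 (0.0960) removed. Wfdc21 did not pass with control replicate 2 (adjusted p = 0.0621), control replicate 3 (0.0546) or knockout replicate 1 (0.0623) removed. Cybb and Cyba, oxidase subunits that macrophages also carry, did not pass. Without control replicate 1 both did, in opposite directions (Cybb 0.28, adjusted p = 0.0290, and Cyba −0.26, adjusted p = 0.0169), and the list then had 1 higher and 10 lower.

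Of 5 gelatinase granule genes, 1 rose, 1 fell and 3 did not pass, with a median of 0.00 on the log2 scale. Mmp9, gelatinase B, had a log2 fold change of −0.65 (SE 0.13), and did not pass with control replicate 2 (adjusted p = 0.0603) or knockout replicate 2 (0.0515) removed. Slc11a1, a metal transporter of macrophage phagosomes, had 0.33, and did not pass with control replicate 2 (adjusted p = 0.0809) or knockout replicate 1 (0.0590), 2 (0.0734) or 3 (0.0641) removed. Of 14 mature neutrophil genes, 2 fell (S100a9 and Padi4), 1 rose (Asprv1) and 11 did not pass, with a median of −0.24. These shares are close to the 10.5% lower and 10.4% higher of all genes tested. The number that fell was 4 without control replicate 1, and the number that rose was 2 with a pseudocount of 5. The colony-stimulating factor receptor Csf3r had a log2 fold change of −0.03 (95% interval −0.21 to 0.14) and Cxcr2 of 0.21 (−0.24 to 0.65). Padi4, an enzyme that citrullinates histones, had −0.69 (SE 0.12). Asprv1, a protease known from skin and neutrophils, rose from 18.35 ± 4.55 to 64.6 ± 11.3, with all 3 knockouts above all controls.

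**Figure D4:**
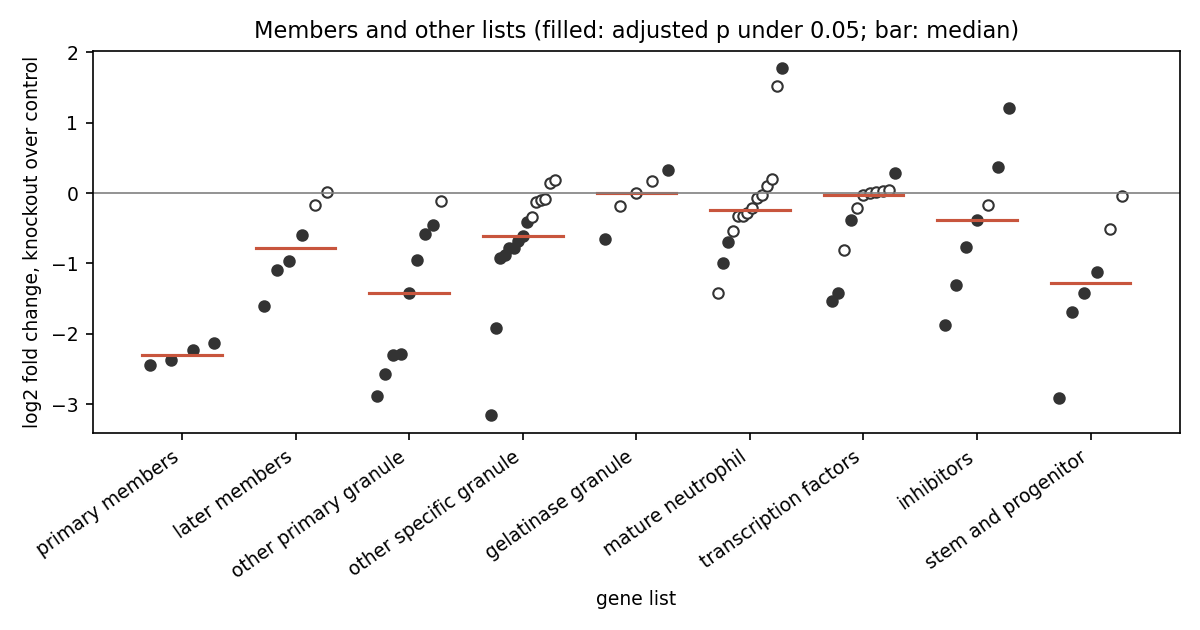
Log2 fold change of knockout over control for each tested gene of the members and of 7 other lists, with filled points for an adjusted p under 0.05 and bars for medians. Medians are −2.30 for primary members, −0.78 for later members, −1.42 for other primary granule genes and −0.61 for other specific granule genes. They are 0.00 for gelatinase granule genes, −0.24 for mature neutrophil genes and −0.03 for transcription factors. For inhibitors the median is −0.38, and for stem and progenitor genes −1.27.

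Of 11 transcription factors of granule gene control, 3 fell (Gfi1, Myb and Cebpb), 1 rose (Etv6) and 7 did not pass, with a median of −0.03. Gfi1, a repressor needed for neutrophil maturation, was at 61.7, 63.9 and 52.6 in the controls and 20.7, 16.5 and 22.4 in the knockouts. The groups were well apart (log2 fold change −1.54, SE 0.27, adjusted p from limma 0.00173). Cebpe, which drives the specific granule genes, had 52.8, 109 and 92.1 in the controls and 55.5, 41.8 and 41.4 in the knockouts. Its groups overlapped through control replicate 1, and its log2 fold change of −0.81 (SE 0.27) had an adjusted p from limma of 0.0548. Cebpe passed without control replicate 1 (adjusted p = 0.00432) and in 6 other alternatives, with edgeR on recovered reads among them (adjusted p = 0.0258). Myb, a factor of progenitor cells, had −1.42 (SE 0.34), and did not pass with control replicate 2 (adjusted p = 0.0693) or 3 (0.0521) or knockout replicate 1 (0.0658) or 2 (0.0656) removed. Cebpb had −0.38, and its call was lost when any library but control replicate 1 was left out (adjusted p-values of 0.0503 to 0.127). Etv6 had 0.29, and its call was likewise lost with any library but control replicate 1 left out (0.0918 to 0.162), with scaling to total reads (0.197), and with edgeR (0.0574), limma voom (0.0645) and TMM scaling (0.0564). With any library but control replicate 1 left out, 1 or 2 factors fell. The number was 5 without control replicate 1, with the replicate block, with scaling to total reads or by TMM, with edgeR or DESeq2, and with a mean of at least 10. Cebpa and Spi1, which codes for PU.1, had log2 fold changes of −0.01 and 0.02 (95% intervals −0.18 to 0.17 and −0.18 to 0.22).

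Of 7 protease inhibitors tested, 4 fell, 2 rose and 1 did not pass, with a median of −0.38. The number that fell was 3 without control replicate 1 or any 1 knockout library, and 5 with limma voom or scaling to total reads. Timp3, among those that fell, did not pass with any library but control replicate 2 left out (adjusted p from limma 0.0672 to 0.139). Slpi, which inhibits elastase and cathepsin G, was at 277, 417 and 568 in the controls and 97.9, 114 and 116 in the knockouts (log2 fold change −1.88, SE 0.21). Serpinb1a, the inhibitor of elastase, proteinase 3 and cathepsin G inside neutrophils, was at 239, 315 and 280 in the controls and 112, 112 and 110 in the knockouts (log2 fold change −1.30, SE 0.14). In both genes every knockout lay below every control. Serpina3g, of a multigene family whose members share sequence, rose from 245 to 558 (log2 fold change 1.21). Of 6 receptors for the later gene products, 1 rose and 5 did not pass, with a median of −0.08. Without control replicate 1, 2 rose and 1 fell, since Cd36 (log2 fold change 0.33, adjusted p = 0.00463) and Fpr2 (−0.30, adjusted p = 0.0347) then passed, and with the replicate block 2 rose. Lrp1, which takes up lactoferrin, had 0.83 (SE 0.17). Lrp1 did not pass with control replicate 2 (adjusted p = 0.0525), knockout replicate 1 (0.0538) or knockout replicate 2 (0.0511) removed. Tlr4, a receptor for the S100a8 protein, had 0.06 (95% interval −0.15 to 0.26).

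Markers of progenitors and of other cells of the marrow were counted in the same way, and the lists differed. Of 6 stem and progenitor markers 4 fell, Kit, Myb and Sox4 among them, and the summed normalized count was 358 to 376 in the controls and 143 to 218 in the knockouts. Kit was at 87.2, 95.4 and 71.4 in the controls and 21.8, 28.2 and 26.8 in the knockouts (log2 fold change −1.69, SE 0.24). The number that fell was 2 without control replicate 2, where Myb was among those that lost their call (adjusted p = 0.0693). Of 5 neutrophil markers, all also in the mature neutrophil list above, 1 fell (S100a9) and 4 did not pass. Their sums were 8531 to 9870 and 6318 to 7321, made up mostly of S100a9 and Csf3r. S100a9 had means of 4898 and 2447, and Csf3r of 4326 and 4238, so the lower sum rests on S100a9. Of 5 monocyte markers 3 fell, Ly6c2 most (log2 fold change −1.41, SE 0.13), with sums of 10453 to 13073 and 8586 to 9571. Of 10 macrophage markers 2 rose and 5 fell, with a median of −0.24 and sums of 343983 to 362215 and 402326 to 419854. Lyz2 and Adgre1 were the 2 that rose. Only the knockouts carry Lyz2-cre, and whether this bears on the reads of Lyz2 was not tested. The other 8 markers summed to 138871 to 150936 in the controls and 102549 to 107479 in the knockouts. With control replicate 2, knockout replicate 1 or knockout replicate 2 removed, 2 of the 10 macrophage markers fell. With knockout replicate 3 removed 3 fell, and 8 fell when scaled to total reads. The number that rose was 1 without control replicate 2. All 5 monocyte markers fell when scaled to total reads, and 2 did with control replicate 2, knockout replicate 1 or knockout replicate 3 removed.

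For other lineages, 4 of 7 eosinophil markers fell and 1 rose (sums of 203 to 255 and 124 to 178). Of 6 mast cell and basophil markers 3 fell (86.3 to 155 and 12.6 to 19.0). Cpa3, among those that fell, had 38 reads over the controls and 0 in knockouts. Fcer1a also had 0 in knockouts, but only 4 over the controls, and did not pass. The number of eosinophil markers that fell was 1 without control replicate 2 and 2 without control replicate 3, without any 1 knockout library or with a mean of at least 10. Mast cell and basophil markers that fell numbered 2 without control replicates 2 or 3 or knockout replicate 2. Also lower were 5 of 6 B cell markers (median −3.84, sums of 804 to 1036 and 603 to 625, or 268 to 412 and 15.6 to 41.3 without Cd79b, which did not pass), 3 of 4 megakaryocyte markers (2848 to 4793 and 1061 to 1246) and 5 of 5 stromal markers (9347 to 14046 and 3056 to 3728). Of 6 dendritic cell markers 1 was lower (116 to 170 and 67.1 to 76.9). Of 3 erythroid markers 1 was lower, or 0 without control replicate 3 and with DESeq2 (sums over the 3 of 10.3 to 11.8 and 3.89 to 7.62). The part of these cells in the granule gene results was not tested.

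Ets1 ChIP-seq peaks were set beside the members as a description, since each state had 1 library. A peak summit lay within 1 kb of the gene start in 3 of 10 members in M1 (Camp, Lcn2 and S100a8) and in 2 in M2 (Lcn2 and S100a8). Of all 23346 genes, 41.0% and 42.3% had one. At Lcn2 the M1 peak (chromosome 2, 32387684 to 32388441) had the authors' fold enrichment of 5.04 and a −log10 q of 5.48, and the M2 peak 4.43 and 4.11. At S100a8 the M1 peak (chromosome 3, 90669021 to 90669416) had 5.51 and 5.05, and the M2 peak 5.90 and 6.04. These peaks overlap the end of the S100a8 promoter run printed above. Of the 10 promoter windows 2 lay under a peak in each state, against 46.4% and 49.4% of 16885 windows. With peaks of a −log10 q of at least 10, 0 members had one within 1 kb, against 23.3% and 26.2% of all genes in M1 and M2.

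At the primary genes no summit lay within 1 kb of a gene start. The nearest to Elane was 4.4 kb away in M1 and 2.9 kb in M2, and to Mpo 36.9 kb and 3.0 kb. The nearest to Prtn3 was 7.3 kb and 3.2 kb away, inside the gene, counted from the start in the expression table, which lies upstream of the RefSeq start used for the promoter run. For Ctsg it was 82.9 kb away in both states. Mmp8 and Ltf, the members that did not pass, had their nearest summits at 36.9 kb and 4.1 kb in M1 and at 9.1 kb and 18.2 kb in M2. The strongest of these nearest peaks lay 11.5 kb from Ngp in both states, with a −log10 q of 19.4 in M1 and 19.0 in M2.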

How the data were processed

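RNA was measured in 3 control and 3 knockout libraries. The authors deposited a normalized signal per gene: read counts divided by 1 size factor per library, as the values show. Each library's values were whole multiples of its smallest value for 100% of entries (tolerance 0.001 of a read), so reads could be recovered. Their table also holds a deposited log2 fold change (control over knockout) with raw and adjusted p-values, not used for results here. Per the submitters' processing notes, HISAT2 2.1.0, Bowtie2 2.2.3 and HTSeq 0.6.0 were used for RNA on mm10, and BWA, SAMtools, MACS2, deepTools and DESeq2 for ChIP, with no roles given. The deposited peak lists give, by the column order of the narrowPeak format, a score of 10 times the −log10 q, a fold enrichment (a ratio), and p and q as −log10.

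Here limma 3.58.1 with a trend was fitted to log2(value + 1) over all genes whose mean reached 1 in at least 1 group, with Benjamini-Hochberg adjustment over all of them and a threshold of 0.05. The pseudocount makes log2 changes of low genes smaller. Fold changes in words are ratios of group means. edgeR 4.0.16, DESeq2 1.42.0 and limma voom on recovered reads, other pseudocounts, filters and scalings, a replicate block and leaving out each library were alternatives. The fit was run on simulated counts that gave all genes and both groups the same spread between replicates. Replicates here differed beyond counting noise, with a chi-square per degree of freedom of 11.6 to 37.5 in controls and 3.10 to 5.4 in knockouts. The simulation did not include this unequal spread, so it cannot show how the fit does on these libraries. The members and lists were chosen with earlier results of these data known. All 10 members are named, with the genes of each list that passed and had the 3 largest changes, the known partners of members, and the 5 genes nearest in profile to each stage. For marker lists of other lineages counts and sums are given in place of names. The symbols missing from the table (Bpi, A2m and some markers of other lineages) were not analysed here. The separate values of 1 marker gene are not reported here.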

Additional observations from a re-analysis of the deposited data

How the results depend on the processing

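The granule gene counts held under all 16 alternatives: 8 or 9 members were called lower and 0 higher, with 4 of 4 primary genes lower each time and 4 or 5 later genes. The median log2 fold change stayed between −2.43 and −2.21 for primary genes and between −0.91 and −0.71 for later genes. Mmp8 alone changed its call, and the sign of Ltf, never called, varied (−0.13 to 0.06). With each library left out in turn, the mean primary share was 12.2% to 13.9% in controls and 4.40% to 5.05% in knockouts. The count over all genes was less stable. It was 4298 (2142 higher, 2156 lower) with all libraries. With 1 library left out, separate fits called 2029 to 5716 genes, 873 to 2976 higher and 1070 to 2740 lower. The count was 5716 without control replicate 1, 2029 without control replicate 2, and 2221, 2054 and 2490 without knockout replicates 1, 2 and 3. Scaled to total reads, 1187 were higher and 3255 lower, and the median of all genes moved from −0.04 to −0.17, so falls of that size rest on the scaling. The cause of these shifts was not tested. Members with an Ets1 summit within 1 kb numbered 3 in M1 and 2 in M2. They numbered 0 and 0 with a −log10 q of at least 10 (23.3% and 26.2% of all genes), and 5 and 5 within 5 kb (50.9% and 52.5% of all genes). The labels do not say whether same-numbered libraries were prepared together. Deviations of same-numbered libraries correlated at 0.310, 0.082 and 0.170 over 9717 genes. Each control correlated best with the knockout of its number, though control replicate 3 did so barely (0.170 against 0.168 with knockout replicate 2). Knockout replicate 2 in turn correlated best with control replicate 3. Whether the libraries are paired was not tested. With the replicate block, 5374 genes and 8 members were called, the latter all lower. Values of a few reads, such as Prss57 in knockouts, limit what can be seen at this depth.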

Other observations

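Among 13676 genes with a mean normalized count of at least 10, the profile over the 6 libraries nearest to the mean profile of the 4 primary genes was that of Ets1 itself, at a root mean square distance of 0.14 on the log2 scale. Next came Osmr, the oncostatin M receptor (0.16, from 153 ± 27.9 to 34.3 ± 7.08, SD, n = 3), Pdgfra, a platelet-derived growth factor receptor of stromal cells (0.16, from 588 ± 92.6 to 102 ± 18.1), Serpinh1, a collagen chaperone (0.16, from 1118 ± 105 to 257 ± 29.9), and Amotl2 (0.17, from 131 ± 20.5 to 27.0 ± 5.26). Each passed the test, with log2 fold changes of −2.12 to −2.52 for these 4. Changes of this size follow from choosing genes by their profile over the same libraries, and add no support. Nearest to the mean profile of the 6 later genes was Pparg, a lipid-sensing nuclear receptor (0.03, from 354 ± 36.1 to 214.5 ± 10.6, log2 fold change −0.71). Then came Cd24a, Gar1, Mtus1 and H1f0, at distances of 0.06 to 0.08. Profiles over 3 against 3 libraries are set mainly by the difference between the groups, and many genes share it.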
